A study of Homo sapiens with 7 samples.

Results

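Polycomb repressive complex subunits were examined in BHT-101, a human anaplastic thyroid cancer cell line, with and without intact ASH1L. The 9 genes are the core subunits of Polycomb repressive complex 2 (EZH2, EZH1, EED and SUZ12) and, from Polycomb repressive complex 1, the chromobox genes CBX2, CBX6 and CBX8 with BMI1 and RNF2. They were taken by name, not by their values, and all 9 were among the 13142 genes in the table and the 11154 genes tested. Levels are log2 RPKM, log2 of reads per kilobase of gene scaled to library size, so levels of different genes are on a per-length scale.

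The ASH1L knockout (KO) group held 4 lines, KO1 to KO4, each a single clone with 1 library. Per the labels, both alleles stop early after residue 413 (KO1), 610 (KO2) or 2129 (KO3), while the alleles of KO4 stop after residues 2169 and 2174. The wild-type (WT) group held 3 replicates of the parental line, which the labels do not say came from separate cultures. All libraries came from cells in the same medium and were made from total RNA. The labels name no edited clone with intact ASH1L, so loss of ASH1L cannot be told apart from whatever else sets a cloned line apart from its parent.

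Polycomb complexes keep developmental genes silent. Polycomb repressive complex 2 methylates histone H3 at lysine 27 through EZH2 or EZH1, with SUZ12 as the scaffold and EED as the subunit that reads the finished mark. In Polycomb repressive complex 1, RNF2 (RING1B) or its paralogue RING1 is the ubiquitin ligase for histone H2A, a PCGF protein such as BMI1 or PCGF2 stimulates it, and in the canonical form a CBX protein binds the methylated lysine. ASH1L is a Trithorax-group methyltransferase for lysine 36 of histone H3, and methylation of that residue is known to hinder Polycomb repressive complex 2 on the same histone tail. EZH2 is the form of dividing cells and is often high in tumours, whereas EZH1 prevails in many resting tissues.

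Since EZH2, EZH1 and SUZ12 are where the methyltransferase complex differed most between KO and WT, their promoters are shown. EED and EZH2 are known as E2F targets, so the windows were searched on both strands for the E2F letters TTTCCCGC, TTTCGCGC, TTTGCCGC and TTTGGCGC and for CCAAT, the letters of the NF-Y box. Capitals mark the matches, which do not overlap each other. The sequences are RefSeq's on GRCh38.p14, with 250 bases before and 50 after the annotated start, from EZH2 at chr7:148884242-148884541 (minus strand), EZH1 at chr17:42744991-42745290 (minus strand) and SUZ12 at chr17:31936757-31937056 (plus strand).
EZH2: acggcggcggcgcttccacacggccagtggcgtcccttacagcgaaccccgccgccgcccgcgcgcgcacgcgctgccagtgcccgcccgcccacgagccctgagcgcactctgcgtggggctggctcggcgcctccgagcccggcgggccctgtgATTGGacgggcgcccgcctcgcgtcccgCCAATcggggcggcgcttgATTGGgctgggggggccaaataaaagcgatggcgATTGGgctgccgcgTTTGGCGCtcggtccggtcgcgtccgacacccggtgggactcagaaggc
EZH1: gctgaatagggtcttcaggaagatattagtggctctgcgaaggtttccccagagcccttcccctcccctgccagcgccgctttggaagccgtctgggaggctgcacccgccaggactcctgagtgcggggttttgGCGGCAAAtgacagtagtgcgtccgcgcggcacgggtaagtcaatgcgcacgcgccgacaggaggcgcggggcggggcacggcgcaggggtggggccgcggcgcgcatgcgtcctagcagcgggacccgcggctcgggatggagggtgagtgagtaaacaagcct
SUZ12: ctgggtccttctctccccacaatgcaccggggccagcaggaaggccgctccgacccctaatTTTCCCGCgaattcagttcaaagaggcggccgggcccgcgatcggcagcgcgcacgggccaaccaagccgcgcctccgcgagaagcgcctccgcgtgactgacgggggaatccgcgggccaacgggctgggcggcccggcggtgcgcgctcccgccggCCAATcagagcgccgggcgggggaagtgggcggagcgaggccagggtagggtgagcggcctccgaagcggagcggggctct

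Promoters were matched for 7 of the 9 genes. The EZH2 window held 1 E2F match and 4 CCAAT matches. The EZH1 window held 1 E2F match and 0 CCAAT matches, and the SUZ12 window held 1 of each. EED held 0 E2F matches and 1 CCAAT match, and the CBX6, RNF2 and BMI1 windows held neither, nor did a second EZH2 start. Over the 35116 promoters of the same length, 3.31% held an E2F match, 34.6% held CCAAT and 0.991% held CCAAT at least 4 times. A match describes letters and is no measure of binding.

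The catalytic paralogues stood in opposite directions: EZH2 was lower and EZH1 was higher in each of the 4 KO clones than in any WT library, and SUZ12 was also higher. CBX6 was higher in every clone, and so was CBX2 by a narrow margin, with its lowest clone at 2.67 and its highest WT library at 2.65 log2 RPKM. EED, CBX8, BMI1 and RNF2 overlapped between the groups. In such bulk libraries, fewer cells with a transcript and less of it per cell cannot be told apart. None of these differences passed the test over all genes (limma with Benjamini-Hochberg adjustment, 0 of 9 with adjusted p under 0.05, against 0.412% of all tested genes). At an unadjusted p under 0.05 stood 4 of the 9 genes, CBX6, EZH1, EZH2 and SUZ12, against 15.7% of all tested genes. The groups did not overlap for 5 of the 9, higher in KO for 4 and lower for 1, against 19.0% of all tested genes, of which 8.88% were higher and 10.1% lower. The clones varied more than WT: over genes, the SD had a median of 0.30 in log2 units for KO clones and 0.10 for WT libraries, and it was larger among KO clones in 90.4% of genes and in 8 of the 9 subunits.

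**Figure D1:**
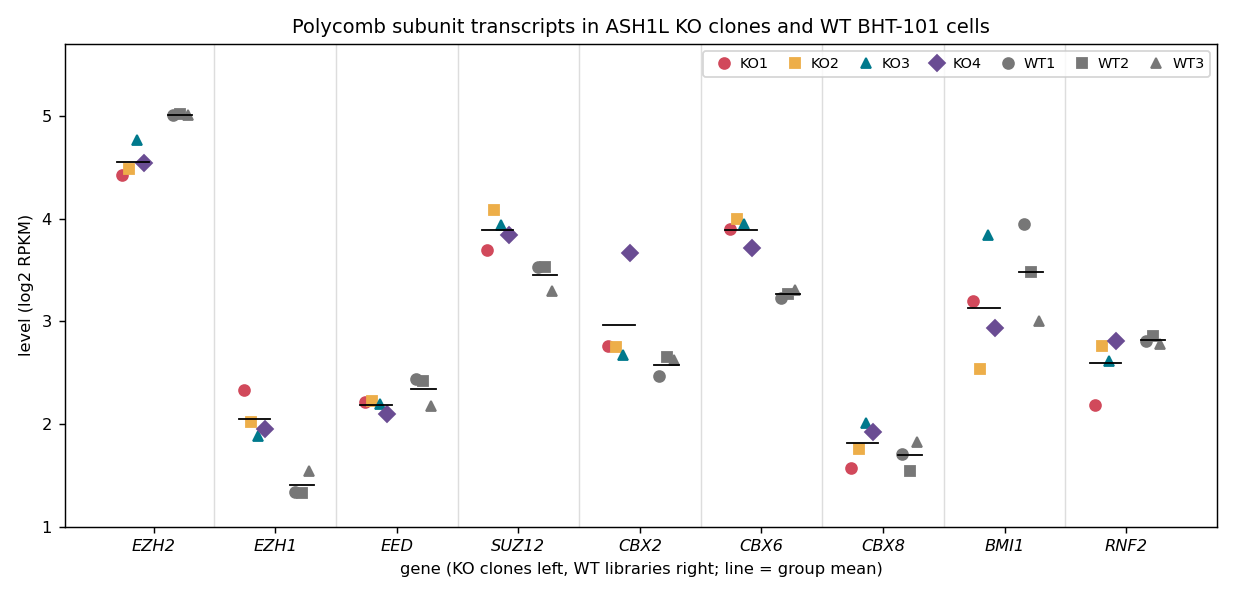
Level of each of the 9 Polycomb genes in log2 RPKM (vertical axis) in the 4 KO clones and, to their right, the 3 WT libraries; points are libraries and lines are group means. EZH2 lies lower and EZH1, SUZ12 and CBX6 lie higher in every KO clone than in any WT library. CBX2 also lies higher, by a narrow margin outside KO4, where it is at 3.66.

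EZH2 (ENSG00000106462, chromosome 7, 148807383 to 148884321, minus strand, hg38), the catalytic subunit, had the highest level of the 9. It was at 4.43, 4.48, 4.77 and 4.54 log2 RPKM in KO1, KO2, KO3 and KO4, against 5.01, 5.01 and 5.01 in WT. All clones were low and KO3 was the nearest to WT. The difference of -0.46 ± 0.11 log2 units (SE, 4 clones and 3 WT libraries), a fold of 0.729, had a limma adjusted p of 0.138.

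EZH1 (ENSG00000108799, chromosome 17, 42700275 to 42745049, minus strand), the alternative catalytic subunit, had the lowest WT level of the 9. It was at 2.34, 2.02, 1.88 and 1.95 log2 RPKM in KO1, KO2, KO3 and KO4, against 1.34, 1.33 and 1.54 in WT. KO1 was highest, and no clone overlapped WT. The difference was 0.64 ± 0.15 log2 units (SE), 1.56-fold, with a limma adjusted p of 0.134.

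SUZ12 (ENSG00000178691, chromosome 17, 31937018 to 32001045, plus strand), without which the complex falls apart, was at 3.70, 4.08, 3.94 and 3.85 log2 RPKM in KO1, KO2, KO3 and KO4, against 3.53, 3.53 and 3.30 in WT. The lowest clone, KO1, stood above the highest WT libraries by less than the distance between WT libraries. The difference was 0.44 ± 0.13 log2 units (SE), 1.36-fold, with a limma adjusted p of 0.184. A transcribed copy, SUZ12P1, has its own row, at 0.56 to 1.14 log2 RPKM in KO and 0.20 to 0.68 in WT, so how reads were split between the copies bears on SUZ12; that was not tested.

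EED (ENSG00000074266, chromosome 11, 86244544 to 86278813, plus strand) hardly varied. It was at 2.21, 2.23, 2.19 and 2.10 log2 RPKM in KO1, KO2, KO3 and KO4, against 2.44, 2.42 and 2.18 in WT. The groups overlapped because WT3 lay among the clones. The difference was -0.16 ± 0.12 log2 units (SE), with a limma adjusted p of 0.528.

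The balance of the catalytic paralogues was then taken within each library, where depth cancels. EZH2 minus EZH1 was 2.09, 2.46, 2.89 and 2.59 log2 units in KO1, KO2, KO3 and KO4, against 3.67, 3.68 and 3.46 in WT. The groups did not overlap. EZH2 stood 5.68-fold over EZH1 in KO and 12.2-fold in WT (2.51 ± 0.33 and 3.61 ± 0.12 log2 units, SD, n = 4 and 3). The difference of -1.10 had a two-sided exact permutation p of 0.0286 over the 35 ways of assigning the labels. That is the smallest p that this design allows, and adjusted over the 4 paralogue pairs compared it was 0.114. Because EZH2 was lower and EZH1 higher in every clone than in any WT library, these groups could not overlap. This p therefore gives no support beyond the levels of EZH2 and EZH1 themselves. With each gene set against its chromosomal neighbours, as described below, the difference was -0.52 (exact permutation p = 0.0286, again the smallest allowed). That p was not adjusted over the pairs, and the comparison was added after the data were seen.

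In linear RPKM, EZH1 made up 19.0%, 15.4%, 11.9% and 14.3% of the EZH2 and EZH1 sum in KO1, KO2, KO3 and KO4, against 7.27%, 7.23% and 8.32% in WT. The sum itself was 26.6, 26.4, 30.9 and 27.1 RPKM in KO1, KO2, KO3 and KO4, against 34.8, 34.8 and 35 in WT. The gain of EZH1 in RPKM was smaller than the deficit of EZH2, so the sum was lower in every clone (27.8 ± 2.12 in KO and 34.9 ± 0.115 in WT, SD, n = 4 and 3).

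**Figure D2:**
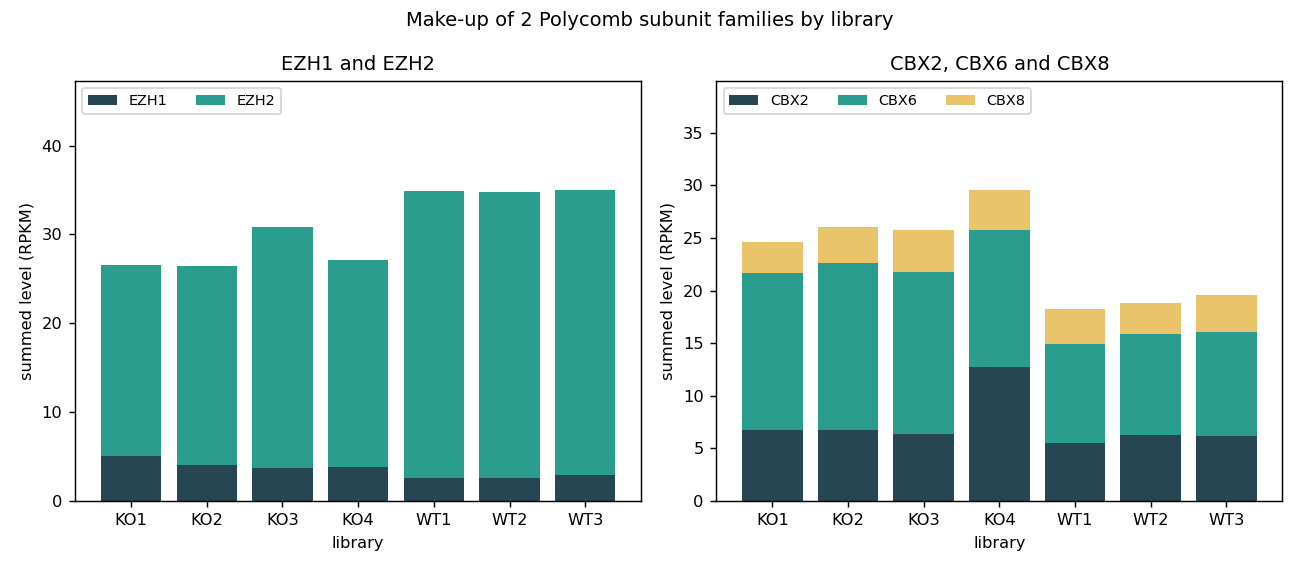
Summed level in linear RPKM (vertical axis, stacked by gene) of EZH1 and EZH2 and of CBX2, CBX6 and CBX8 in the 4 KO clones and, to their right, the 3 WT libraries. The EZH sum is 26.4 to 30.9 in KO and 34.8 to 35 in WT with a thicker EZH1 layer in KO, and CBX6 is at 13.1 to 15.9 RPKM in KO and 9.4 to 9.86 in WT.

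Among the chromobox genes, whose products carry the chromodomain that reads methylated lysine 27 in canonical Polycomb repressive complex 1, CBX6 stood apart. CBX6 (ENSG00000183741, chromosome 22, 38861450 to 38872314, minus strand) was at 3.90, 3.99, 3.95 and 3.72 log2 RPKM in KO1, KO2, KO3 and KO4, against 3.23, 3.26 and 3.30 in WT. Every clone was high, with a gap to WT wider than the range within either group. The difference was 0.62 ± 0.11 log2 units (SE), 1.54-fold, with the smallest limma adjusted p of the 9 genes, 0.0682.

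CBX2 (ENSG00000173894, chromosome 17, 79778132 to 79787983, plus strand) was at 2.76, 2.75, 2.67 and 3.66 log2 RPKM in KO1, KO2, KO3 and KO4, against 2.46, 2.65 and 2.62 in WT. KO4 was far above all others, while KO1, KO2 and KO3 lay just above WT. The difference was 0.38 ± 0.25 log2 units (SE), with a limma adjusted p of 0.480, and 0.15 without KO4. CBX8 (ENSG00000141570, chromosome 17, 79792132 to 79801683, minus strand), the next of these genes on the chromosome, was at 1.57, 1.76, 2.01 and 1.92 log2 RPKM in KO1, KO2, KO3 and KO4, against 1.71, 1.54 and 1.83 in WT. Its groups overlapped, and KO4 was not its highest clone (0.12 ± 0.16 log2 units, SE, limma adjusted p = 0.732). CBX8 minus CBX2 was -1.74 in KO4 and -1.19 to -0.66 in KO1, KO2 and KO3, against -1.11 to -0.75 in WT (exact permutation p = 0.486, adjusted over the 4 pairs 0.486).

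The paralogue CBX7 was low, at 0.40 to 1.17 log2 RPKM in KO and 0.24 to 0.87 in WT, and its groups overlapped. Summed in linear RPKM, CBX2, CBX6 and CBX8 were at 24.7, 26.0, 25.8 and 29.6 in KO1, KO2, KO3 and KO4, against 18.2, 18.8 and 19.6 in WT. The sum was higher in every clone. CBX6 held 60.5%, 61.1%, 59.8% and 44.4% of it in KO1, KO2, KO3 and KO4, against 51.7%, 51.1% and 50.4% in WT. KO4, where CBX2 held 42.8%, had the lowest CBX6 share of all libraries, and the other clones the highest.

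BMI1 and RNF2 form the catalytic pair of Polycomb repressive complex 1. BMI1 (ENSG00000168283, chromosome 10, 22321211 to 22331484, plus strand), which activates the ligase, was at 3.20, 2.54, 3.84 and 2.93 log2 RPKM in KO1, KO2, KO3 and KO4, against 3.94, 3.49 and 3.01 in WT. It was the most variable of the 9 within WT, and its groups overlapped widely (-0.35 ± 0.34 log2 units, SE, limma adjusted p = 0.631). BMI1 shares 1000 exonic bases, 23.4% of its own, with the read-through gene COMMD3-BMI1 on the same strand, so its reads are uncertain. COMMD3, the upstream partner of that transcript, was at 2.38, 1.73, 3.30 and 2.20 log2 RPKM in KO1, KO2, KO3 and KO4, against 2.94, 2.96 and 2.89 in WT. The clones had the same order in both genes, KO3 highest and KO2 lowest, but COMMD3 did not vary within WT as BMI1 did. COMMD3 was picked after its values were seen.

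PCGF2, the closest paralogue of BMI1, was at 2.01, 1.97, 2.13 and 1.77 log2 RPKM in KO1, KO2, KO3 and KO4, against 1.65, 1.54 and 1.64 in WT. No clone overlapped WT, and the difference of 0.36 ± 0.13 log2 units (SE) had a limma adjusted p of 0.261. PCGF2 lies on chromosome 17, where its 102 neighbours within 5 Mb had medians of 0.35, 0.34, 0.34 and 0.26 in KO1, KO2, KO3 and KO4. With the neighbours subtracted, as described below, the PCGF2 difference was 0.05 ± 0.11 log2 units (SE). BMI1 minus PCGF2 was 1.19, 0.56, 1.71 and 1.16 in KO1, KO2, KO3 and KO4, against 2.29, 1.95 and 1.37 in WT, which overlapped (difference -0.71, exact permutation p = 0.143, adjusted over the 4 pairs 0.286). With each gene set against its neighbours, the difference was -0.29.

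RNF2 (ENSG00000121481, chromosome 1, 185045364 to 185102608, plus strand), the ligase, was at 2.18, 2.76, 2.62 and 2.81 log2 RPKM in KO1, KO2, KO3 and KO4, against 2.81, 2.86 and 2.78 in WT. KO1 was low and KO4 lay within WT. The difference was -0.22 ± 0.17 log2 units (SE), with a limma adjusted p of 0.538. RING1 was at 3.01, 2.33, 3.18 and 2.87 log2 RPKM in KO1, KO2, KO3 and KO4, against 2.68, 2.66 and 2.78 in WT. RNF2 minus RING1 was near 0 in WT (-0.00 to 0.21) and ran from -0.83 in KO1 to 0.43 in KO2, with a difference of -0.37 (exact permutation p = 0.343, adjusted over the 4 pairs 0.457).

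By mean level the 9 genes kept EZH2 at the top in both groups, at 4.55 in KO and 5.01 in WT. In KO, SUZ12 and CBX6 followed with equal means of 3.89, then BMI1 at 3.13, CBX2 at 2.96, RNF2 at 2.59, EED at 2.18, EZH1 at 2.05 and CBX8 at 1.81. In WT, BMI1 (3.48), SUZ12 (3.45) and CBX6 (3.27) followed without a gap beyond their spread, then RNF2 (2.82), CBX2 (2.58), EED (2.34), CBX8 (1.69) and EZH1 (1.41). EZH1 was thus last in WT, while in KO it lay above CBX8 and its range reached that of EED.

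Each clone was also set against WT alone, with the spread taken from the 3 WT libraries. Since clones vary more than WT libraries, these calls are made too readily, and each count stands beside the share of all tested genes. KO1 passed for EZH2, EZH1, CBX6 and RNF2 (4 of 9, background 44.1%). KO2 passed for EZH2, EZH1, SUZ12 and CBX6 (4 of 9, background 33.5%). KO3 passed for EZH1, SUZ12 and CBX6 (3 of 9, background 34.1%), and KO4 for EZH2, EZH1, CBX2 and CBX6 (4 of 9, background 24.8%). In KO1, KO2 and KO3 the counts lay near the background share. All 4 comparisons share the same WT libraries, so a gene called in several of them was not called independently.

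The clones differed in which subunit departed most from the WT mean. In KO1 it was EZH1, 0.93 higher (limma adjusted p = 0.00294), followed by CBX6 at 0.63 and RNF2, which fell by 0.63. In KO2 it was BMI1, at -0.94 without a call, next to CBX6 at 0.73 and SUZ12 at 0.63. In KO3 it was CBX6 at 0.68. In KO4 it was CBX2 at 1.09, more than 5 times its log2 difference in any other clone. EED was between -0.25 and -0.12 in all clones, with no call.

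**Figure D3:**
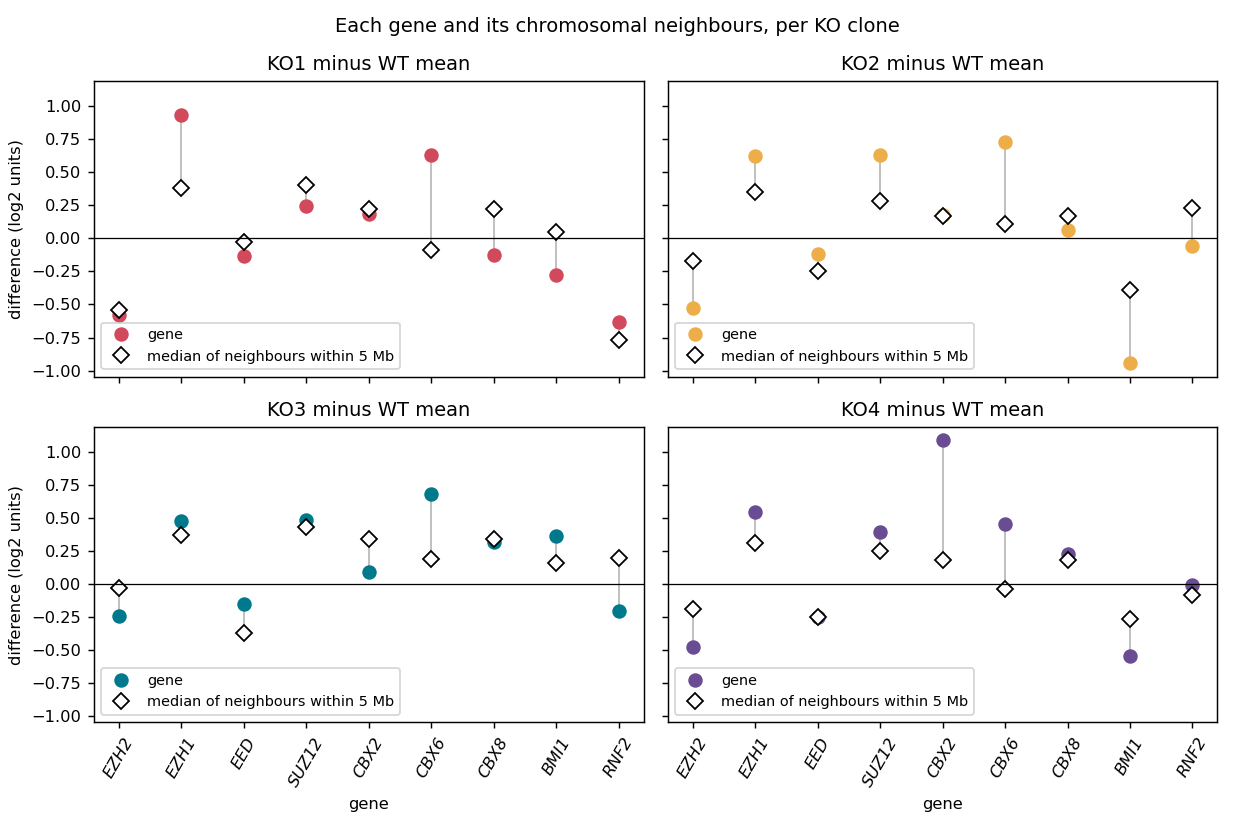
KO minus WT in log2 units (vertical axis) for each of the 9 genes in KO1 to KO4, as a coloured point, beside the median of the tested genes within 5 Mb of it, as a diamond. EZH1 sits above neighbours that are higher in every clone, RNF2 in KO1 sits near its neighbours' median of -0.77, and CBX6 sits above neighbours that lie near 0.

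Whole chromosome stretches differed between the clones and WT, and the subunits were read against them. Chromosome 17 carries 4 of the 9 genes (EZH1, SUZ12, CBX2 and CBX8), and 7 of the 40 Polycomb genes in the table. The median over its 623 tested genes was 0.23, 0.16, 0.28 and 0.15 log2 units above WT in KO1, KO2, KO3 and KO4. On chromosome 7, with EZH2, it was -0.38, -0.09, -0.11 and -0.16. Gene copy number was not measured, and its part in these values was not tested.

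Nearer to each gene, the median of the tested genes within 5 Mb was compared. Around EZH1, 116 genes had medians of 0.38, 0.35, 0.37 and 0.31 in KO1, KO2, KO3 and KO4, and EZH1 stood above 107 of them. Around SUZ12, 72 genes had medians of 0.40, 0.28, 0.43 and 0.25, and SUZ12 stood above 48. The 39 genes around EZH2 had medians of -0.54, -0.17, -0.03 and -0.19, and 7 of them were lower than EZH2. EZH2 in KO1, at -0.58, was thus close to its neighbours there, while in KO2, KO3 and KO4 it was lower than they were.

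CBX6 was different in this respect. Its 92 neighbours had medians of -0.09, 0.11, 0.19 and -0.04 in KO1, KO2, KO3 and KO4, and CBX6 stood above 90 of them. RNF2 in KO1, at -0.63, lay among 25 neighbours with a median of -0.77 in that clone, against 0.23, 0.20 and -0.08 in KO2, KO3 and KO4. The 123 neighbours of CBX2 and CBX8 had medians of 0.22, 0.17, 0.34 and 0.18, so CBX2 in KO4 stood 0.91 above its neighbours and CBX8 stood 0.05 above them. The 21 neighbours of BMI1 had medians of 0.05, -0.39, 0.16 and -0.26, which put the clones in the same order as BMI1 itself, KO3 first and KO2 last. The 20 neighbours of EED had medians of -0.03, -0.25, -0.37 and -0.25.

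After the median of the neighbours was subtracted in every library, CBX6 was 0.58 ± 0.09 log2 units higher (SE, limma adjusted p = 0.0903) and EZH2 was at -0.23 ± 0.10 (SE, adjusted p = 0.360). These were the only 2 of the 9 genes with groups that still did not overlap, not far from the 16.8% of all genes so centred. For EZH2 the margin was lost in rounding, with centred levels of 4.97 in both KO1 and WT3. CBX6 was then 0.72, 0.61, 0.50 and 0.49 above WT in KO1, KO2, KO3 and KO4. EZH1 was then at 0.29 ± 0.14 (SE, adjusted p = 0.414), with KO3 just below the highest WT library. SUZ12 was at 0.10 ± 0.13 (SE, adjusted p = 0.754).

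**Figure D4:**
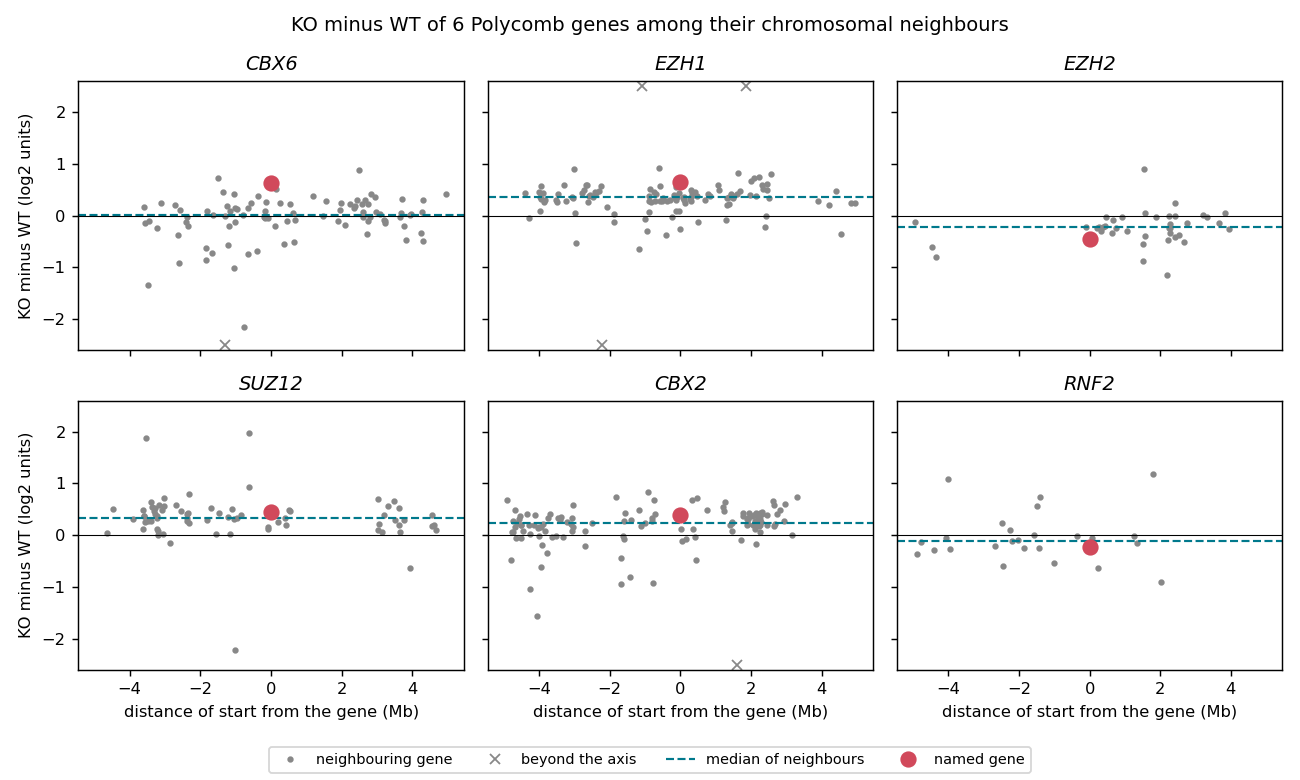
KO minus WT in log2 units (vertical axis) of the tested genes within 5 Mb of CBX6, EZH1, EZH2, SUZ12, CBX2 and RNF2, by distance of their starts in Mb (horizontal axis); the dashed line is the neighbours' median and crosses mark genes beyond the axis. CBX6 stands above 90 of its 92 neighbours, and EZH1 and SUZ12 lie in stretches where most genes are above 0.

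Other genes of the pathway were read from lists, described by counts and medians beside those of all tested genes, whose median was -0.02 with 5240 of 11154 above 0. The 9 subunits had a median of 0.12, with 5 above 0. Of 11 accessory genes of Polycomb repressive complex 2, 9 were tested, 0 passed, 5 were above 0 and the median was 0.07. PHF19, a Polycomb-like protein that helps the complex onto chromatin, was at 4.62, 4.26, 4.34 and 4.36 log2 RPKM in KO1, KO2, KO3 and KO4, against 4.05, 3.94 and 3.82 in WT (0.46 ± 0.12 log2 units, SE, limma adjusted p = 0.161). Its groups did not overlap, and its neighbours had medians of 0.43, 0.38, -0.04 and 0.28. JARID2, which guides the complex to target genes, ran from 0.93 in KO3 to 2.24 in KO4, against 1.24 to 1.27 in WT.

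Of 23 other genes of Polycomb repressive complex 1, 19 were tested, 0 passed, 13 were above 0 and the median was 0.04. Besides PCGF2, those with the smallest p were PHC3, a polyhomeotic protein (0.41 ± 0.21 log2 units), PCGF6 (-0.25 ± 0.13) and SCMH1 (0.32 ± 0.17), with SE and limma adjusted p of 0.377 to 0.403. All 3 overlapped between the groups. The opposing deubiquitinase complex around BAP1, which removes ubiquitin from histone H2A, had 8 of 10 listed genes tested, 0 passed, 6 above 0 and a median of 0.245. FOXK2, which brings BAP1 to DNA, was at 3.82, 3.48, 3.84 and 3.73 log2 RPKM in KO1, KO2, KO3 and KO4, against 3.27, 3.28 and 3.36 in WT (limma adjusted p = 0.184), among chromosome 17 neighbours with medians of 0.27, 0.19, 0.36 and 0.24. HCFC1, a scaffold that BAP1 binds, was at 4.91, 4.62, 4.90 and 4.85, against 4.61, 4.31 and 4.21 in WT (limma adjusted p = 0.192).

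The lysine 27 demethylases KDM6A and KDM6B and the acetyltransferases CREBBP and EP300, which act on the same residue as EZH2, were all tested with 0 passing and a median of 0.17. CREBBP was at 2.61, 2.92, 3.15 and 2.76 log2 RPKM in KO1, KO2, KO3 and KO4, against 2.5, 2.31 and 2.52 in WT (limma adjusted p = 0.264), and its groups did not overlap. EP300 overlapped between the groups.

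EZH2 is known to follow the cell cycle through E2F, so a list of E2F targets and proliferation genes was set beside it. Of 24 genes, 23 were tested, 0 passed, 16 were above 0 and the median was 0.06, with clone medians of 0.28, 0.05, 0.11 and 0.12 in KO1, KO2, KO3 and KO4. EZH2, at -0.46, was lower than the middle of this list, whose genes ran from -0.49 to 0.65. With its neighbours subtracted, EZH2 was at -0.23. The cause of the EZH2 difference was not tested. MCM7, a helicase subunit on chromosome 7, was at 6.79, 7.21, 7.24 and 7.05 log2 RPKM in KO1, KO2, KO3 and KO4, against 7.64, 7.51 and 7.54 in WT (-0.49 ± 0.13 log2 units, SE, limma adjusted p = 0.16). Its neighbours had medians of -0.70, -0.22, -0.28 and -0.33. The S-phase cyclin gene CCNE2 was higher at 0.65 ± 0.23 log2 units (SE, limma adjusted p = 0.236).

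Of 47 genes known from other cells as targets of Polycomb repressive complex 2, 27 were in the table and 21 were tested, 1 of which rose and 0 fell, against 0.17% of all tested genes that rose and 0.242% that fell. The groups did not overlap for 3 of the 21 with KO higher and for 5 with KO lower, against 8.88% and 10.1% of all tested genes, the median was -0.015 and 9 were above 0. GLI3, a Hedgehog transcription factor, was the gene that passed, at 1.91, 0.53, 1.2 and 1.44 log2 RPKM in KO1, KO2, KO3 and KO4, against -1.06, -1.44 and -1.2 in WT (2.5 ± 0.35 log2 units, SE, limma adjusted p = 0.0420). All its WT levels were below 0, the limit of the filter on low values. GLI3 was thus tested only through the KO clones, where it was high, so its call gives no support to a rise among the listed targets. Its adjusted p was 0.0701 after position-centring, 0.213 to 0.281 without any 1 WT library and 0.281 with a replicate block, with a difference of 2.38 to 2.59 in these. SOX9, a developmental transcription factor, was at 3.81, 2.12, 2.41 and 3.24, against 1.06, 1.22 and 1.01 in WT (limma adjusted p = 0.105). HOXB8 was lower in every clone, at -1.60, -0.64, -1.13 and -1.71, against 0.91, 0.57 and 0.55 in WT (limma adjusted p = 0.0850). All its KO levels were below 0, so HOXB8 was tested only through the WT libraries, where it was high. IRX3 (0.659 to 2.231 in KO, -0.495 to 0.052 in WT) likewise met the filter only through KO. TBX2, named after its values were seen (-1.936 to 1.083 in KO, 1.166 to 1.724 in WT), met it only through WT. The counts without overlap include these genes, so they give no support to a change among the listed targets. The listed targets lay in both directions. The lower limit of -4.24 is CDKN2B, a cell-cycle inhibitor named here after its values were seen, which was at 2.46, 0.77, -9.88 and 2.76 in KO1, KO2, KO3 and KO4, against 3.04, 3.36 and 3.38 in WT. Without KO3 its difference was -1.27 (limma adjusted p = 0.224).

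**Figure D5:**
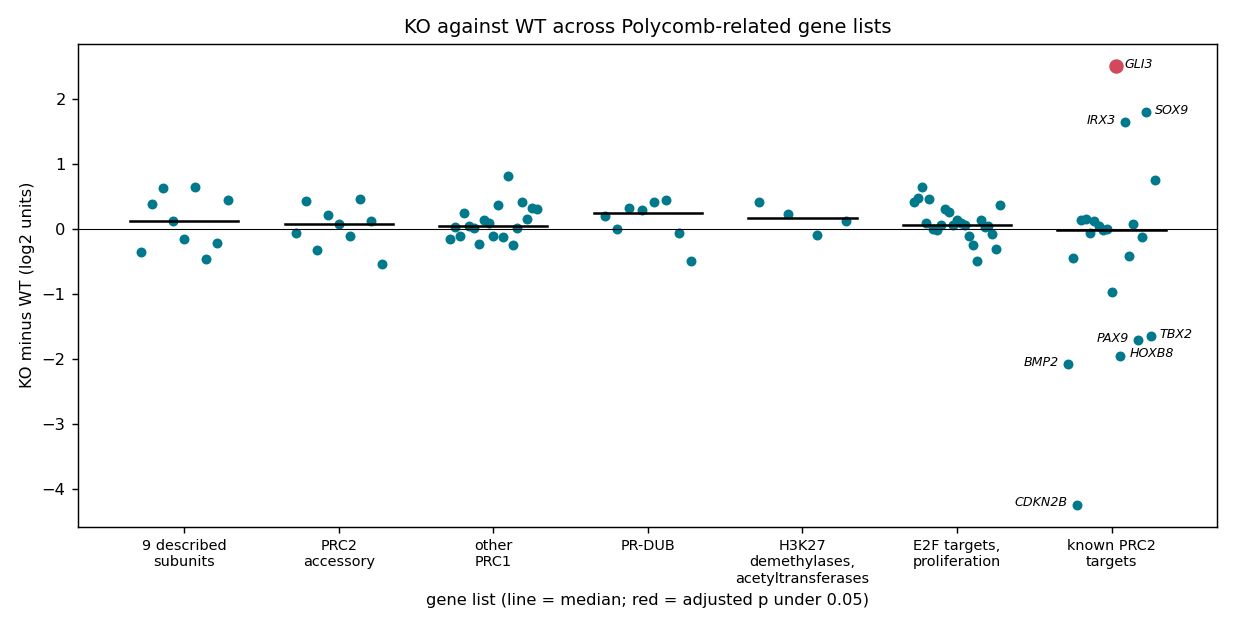
KO minus WT in log2 units (vertical axis) for the tested genes of 7 lists (horizontal axis); points are genes, black lines are medians and the red point, GLI3, passed an adjusted p under 0.05. The 9 subunits lie between -0.46 and 0.64, and the known targets run from -4.24 (CDKN2B, set by KO3) to 2.5.

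The patterns over the 7 libraries most like each subunit were sought among 8148 or 8149 other tested genes whose SD was at least 0.2 log2 units, as Pearson r. With 7 libraries in 2 groups and so many genes, high values are common, so this is a description. EZH2 was matched by SLC25A3, a mitochondrial phosphate carrier, and FKBP5, a co-chaperone of steroid receptors (r = 0.996 each). EZH1 was matched by ZNF462 (0.992). SUZ12 was matched by the RNA helicase gene DDX17 (0.984) and by BLMH (0.973), which also lies on chromosome 17, within 5 Mb of SUZ12. CBX6 was matched by MFSD11 (0.986) and NFX1 (0.983), CBX2 by STK38L (0.976) and LEMD2 (0.963), and RNF2 by MAGEB2 (0.998) and the growth factor gene EREG (0.989). BMI1 was matched by the phosphatase gene PPM1G (0.961), CBX8 by DENND4B (0.952), and EED less closely by CDCA7 (0.903) and EHD1 (0.895). EHD1 lies on chromosome 11, as does EED.

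Facts of the whole series bear on these values. ASH1L was at 2.69, 2.54, 2.42 and 3.74 log2 RPKM in KO1, KO2, KO3 and KO4, against 3.34, 3.30 and 3.22 in WT, so the transcript was not lower in KO4. A stop codon need not lower the transcript, so this level does not check the labels. The keratin genes KRT8, KRT18 and KRT19 were expressed in all libraries, whereas PAX8, a thyroid lineage factor, lay below 0 in all of them, at -5.02 to -1.2 log2 RPKM in KO and -2.97 to -2.23 in WT. Other epithelial genes of the list differed between clones. CDH1 was at -5.86, 1.97, -2.20 and -2.83 log2 RPKM in KO1, KO2, KO3 and KO4, against 0.475 to 0.777 in WT. EPCAM was at 1.71, 3.88, 3.19 and 1.85, against 2.85 to 3.04 in WT. In all, 6 of the 11 epithelial and thyroid markers had values. Their summed level was 233 to 576 RPKM in KO and 488 to 583 in WT. Leukocyte markers (3 of 9 with values) summed to 0.675 to 3.18 RPKM in KO and 9.64 to 12.3 in WT, with CD3D the largest part in WT (8.29 to 10.5 RPKM) and at 0.00464 to 0.723 RPKM in KO, and fibroblast and endothelial markers (4 of 9) to 20.4 to 70.2 in KO and 51.4 to 55.4 in WT. Their part in the results was not tested.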

How the data were processed

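Total RNA of BHT-101 cells, 4 KO clones and 3 WT replicates, was sequenced. The deposited values are log2 RPKM per gene, for which the authors used edgeR, HTSeq 0.11.2, STAR 2.5.3a and Trim Galore 0.4.1 with hg38, per the submitters' processing notes. The annotation, the strand setting and the prior count added before the logarithm are not given in the sources used here. Read totals are not used here. With an assumed prior count of 0.25, the lowest shared values gave a mean library of about 58.0 M reads. Of the subunits, CBX8 then had the fewest reads at its lowest level, about 702, with a counting error of 3.77%.

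Genes above 0 log2 RPKM in at least 3 of 7 libraries (11154) were fitted with limma 3.58.1 in R 4.3.3, with a trend on the mean level and Benjamini-Hochberg adjustment over all of them. P-values for KO against WT rest on 4 clones with 1 library each. Nothing in the labels says that the WT replicates came from separate cultures, so their spread may be technical. Paralogue pairs were compared by an exact permutation test. Positions came from GENCODE release 29 on hg38, which matched 95.4% of genes. Position-centring subtracts the median difference of the tested genes within 5 Mb, with at least 5 of them. The fits were tested on simulated data. Named genes are ASH1L, the 9 subunits and their paralogues, up to 4 genes per list by smallest unadjusted p, every listed gene called, and 2 genes per subunit by likeness. The subunits, lists and tests were chosen with earlier results of these data known. Alternatives were other filters on low values, log2(RPKM + 1), quantile and median scaling, no trend, position-centring, a replicate block and leaving out each library. A paralogue in the rule for named genes is not reported here.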

Additional observations from a re-analysis of the deposited data

Results flagged for a closer look

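CBX2 in KO4 stood apart from the other clones, at 3.66 log2 RPKM beside 2.76, 2.75 and 2.67 in KO1, KO2 and KO3, and 2.46, 2.65 and 2.62 in WT. Its gap to the nearest clone was 0.907 of the range of the 4 clones, above Dixon's critical value for 4 samples. This was 1 flag in 13 groups checked, and chance flags about 1 in 20 groups. The neighbouring genes in KO4 had a median difference from WT of 0.18, and CBX8 a difference of 0.23. The cause was not tested.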

How the results depend on the processing

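No subunit passed for KO against WT under any alternative. The count of genes called over the whole table, 46, became 30 with a stricter filter on low values, 75 on log2(RPKM + 1) (20 higher and 55 lower, 26.7% higher against 41.3% in the main setting) and 1 after position-centring; the causes were not tested. Leaving out 1 library at a time gave 0 to 236 genes: 0 without WT1, WT2 or WT3, 236 without KO2, 87 without KO3 and 1 without KO4. The labels give KO1 to KO3 and WT1 to WT3 the same numbers, but deviations of same-numbered libraries correlated at 0.06, 0.066 and -0.012, and not every library correlated best with its own number. With the number as a replicate block, 0 genes and 0 subunits were called.

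For single clones, leaving out a WT library gave 3088 to 5833 genes and 4 to 4 subunits in KO1, 1743 to 4867 and 3 to 5 in KO2, 1706 to 4906 and 1 to 4 in KO3, and 1153 to 3972 and 1 to 6 in KO4. The lowest counts came without WT2 and the highest without WT3. After position-centring 2 subunits were called in KO1 (EZH1 and CBX6, against 31.0% of all genes so centred), 2 in KO2 (EZH2 and CBX6, 26.1%), 2 in KO3 (CBX6, and RNF2, which gained its call at -0.39, 24.1%) and 2 in KO4 (CBX2 and CBX6, 18.2%). These shares of the 9 lie near or below those of all genes, except in KO4, where 2 of 9 is slightly above. Setting library medians to 0 moved the share of calls that were higher in KO1 to 53.0%, and quantile normalization to 51.5%, against 43.5%.

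Of 135 subunit values for KO against WT, 133 kept their direction and their side of the threshold and 2 reversed; of 360 for single clones, 322 did so, 14 lost and 9 gained a call and 15 reversed. Under position-centring EED reversed to 0.069 and CBX8 to -0.10 for KO against WT. Single clones reversed there to -0.15 (SUZ12), -0.036 (CBX2) and 0.15 (RNF2) in KO1, 0.14 (EED) and -0.11 (CBX8) in KO2, 0.23 (EED), -0.25 (CBX2) and -0.019 (CBX8) in KO3, and 0.005 (EED) and 0.085 (RNF2) in KO4. CBX8 in KO2 reversed to -0.028 under quantile normalization and ran from -0.011 without WT2 to 0.133 without WT3. RNF2 in KO4 reversed to 0.052 under quantile normalization and 0.044 with library medians at 0, and ran from -0.023 without WT3 to 0.019 without WT2. Leaving out 1 library moved the KO against WT difference of CBX2 over 0.15 (without KO4) to 0.48, of RNF2 over -0.30 to -0.09 (without KO1), of BMI1 over -0.59 to -0.12 (without WT1), of CBX8 over 0.04 (without WT2) to 0.20 and of EED over -0.25 (without WT3) to -0.12; none of these was called. It gave EZH2 minus EZH1 differences of -1.23 to -0.96, RNF2 minus RING1 of -0.59 to -0.18, BMI1 minus PCGF2 of -0.96 to -0.50 and CBX8 minus CBX2 of -0.43 to -0.06. Position-centring of the pairs was added after the data were seen.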

Other observations

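The genes below lie outside the 9 subunits and were chosen after their values were seen. PCGF5 and PHC1 varied between clones more than any subunit (SD 1.36 and 1.14, against at most 0.55, in BMI1). PCGF5, a subunit of variant Polycomb repressive complex 1, was at 2.6, 1.42, -0.69 and 1.36 log2 RPKM in KO1, KO2, KO3 and KO4, against 0.40, 0.39 and 0.30 in WT. It was high in KO1, KO2 and KO4 and low in KO3, while its neighbours had medians of -0.00, -0.15, -0.32 and -0.18. PHC1, a polyhomeotic subunit of canonical Polycomb repressive complex 1 under the filter on low values, was at 1.10, -0.71, -1.59 and 0.02, against -0.35, -0.30 and -0.09 in WT, also highest in KO1 and lowest in KO3.

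Of the 7 listed genes on the X chromosome, 4 (RBBP7, OGT, KDM6A and BCOR) shared another pattern. RBBP7, a histone-binding partner of Polycomb repressive complex 2, was at 4.19, 4.98, 3.75 and 5.02 log2 RPKM in KO1, KO2, KO3 and KO4, against 5.06, 5.08 and 4.93 in WT. OGT, which glycosylates HCFC1, was at 3.73, 4.25, 3.25 and 4.31, against 4.27, 4.26 and 4.61 in WT. The demethylase gene KDM6A was at 1.45, 2.6, 1.72 and 2.51, against 2.16, 2.11 and 2.24 in WT. BCOR, a subunit of a variant Polycomb repressive complex 1, was at 2.41, 3.09, 2.55 and 2.89, against 3.02, 2.79 and 2.86 in WT. All 4 were below every WT library in KO1 and KO3, where their neighbours had medians of -0.82 to -0.56, and near or above WT in KO2 and KO4. BCORL1, HCFC1 and SCML2, also on the X chromosome, did not have this pattern. CDKN2A, a cell-cycle inhibitor that BMI1 is known to repress, was at 4.33, 3.08, 2.41 and 3.90, against 3.88, 3.90 and 3.88 in WT. Its lowest clone, KO3, had the highest BMI1, and KO2, the next lowest, had the lowest BMI1. CDKN2B, at 2.46, 0.77, -9.88 and 2.76, was also lowest in KO3 and next lowest in KO2. The cause of these CDKN2A and CDKN2B levels was not tested.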
